A study of Mus musculus with 13 samples.

Results

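Interferon-stimulated genes are the genes that cells switch on when interferons bind their receptors. A list of 40 of them was followed by gene symbol through the single-cell counts deposited with a study of mouse lung. Kept were the 33618 of 37344 cell barcodes with at most 10% of unique molecular identifiers (UMIs) from mitochondrial genes. Each UMI marks 1 captured RNA molecule. Of the 40 genes, 39 were among the 31053 genes listed, and Mx2 was not. The members were taken as a list of gene symbols, not by a threshold on a level.

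Type I interferons signal through the receptor chains IFNAR1 and IFNAR2, and type III interferons through IFNLR1. Both lead to a transcription factor complex that holds STAT2 and IRF9 and binds a short element in target promoters. Interferon gamma acts through IFNGR1 and IFNGR2. The products of the target genes sense viral RNA or DNA, degrade it, block entry or budding of virus, and feed back on the pathway.

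The study examined eosinophils in a C57BL/6 mouse model of emphysema driven by porcine pancreatic elastase (PPE). By their labels, 4 of the 13 samples are lungs of the Asthma, Control, PPE-emphysema and PPE-recovery groups, for which the study used single-cell sequencing of a single mouse each. The asthma mice were sensitized and challenged with ovalbumin, the PPE-emphysema mice had weekly PPE instillations and were taken after the last, the control mice were instilled on that schedule, and the PPE-recovery mice had a single PPE instillation and were taken weeks later. The other 9 samples, 3 each of Acute injury, Con and emphysema, are not analysed here, and the agent given to controls and the age of the mice were not stated in the labels or methods. Barcodes end in 1 of 7 library numbers, which is more than the 4 lung samples. Nothing ties a number to a mouse or a tissue, so the groups could not be compared. The matrix was treated as 1 sample with no test of a condition. Levels are UMIs of a gene per 1000000 UMIs (CPM) summed over cells, with exact 95% Poisson intervals in brackets that cover counting error only.

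Libraries held 2992 to 7626 kept cells each, with 29619014 to 76435633 UMIs. Libraries 4, 5 and 6 stood apart, and no label gives their tissue. Their globin genes took 38.6%, 40.6% and 35.3% of UMIs, against at most 0.0310% in the other libraries, and their shallowest kept barcode had 3439 to 5735 UMIs, against 304 to 501 elsewhere. Of 37191 distinct barcode sequences, 153 occurred in more than 1 library. Cells were clustered without the 40 genes and named from marker genes. This gave 17 classes, and 4791 cells stayed unnamed, among them a cluster led by Ccr3, a receptor of eosinophils, whose 352 cells had a median of 688 UMIs. Libraries 4, 5 and 6 held no cell of the endothelial, lymphatic endothelial, fibroblast, alveolar macrophage or alveolar type 2 classes. Almost all erythroid cells lay in those libraries, so a comparison with all other cells also compares unlike libraries. Since fewer transcribing cells and less RNA per cell give the same summed level, the spread over single cells is described separately.

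Promoters of 4 genes are shown, because the results turn on how differently these genes behaved. Rsad2 and Isg15 were the members that stood out in red blood cells, Ifit3 was near absent there, and Cmpk2 lies next to Rsad2 on chromosome 12 in the opposite orientation. The sequences are the 250 bases before the start of the gene in RefSeq on GRCm38.p6, read on the gene's strand. They lie at chr12:26456453-26456702 (minus strand), chr4:156200819-156201068 (minus), chr19:34583279-34583528 (plus) and chr12:26468965-26469214 (plus). Capitals mark the interferon-stimulated response element, searched as GAAA, any 2 bases and GAAA on both strands.
Rsad2: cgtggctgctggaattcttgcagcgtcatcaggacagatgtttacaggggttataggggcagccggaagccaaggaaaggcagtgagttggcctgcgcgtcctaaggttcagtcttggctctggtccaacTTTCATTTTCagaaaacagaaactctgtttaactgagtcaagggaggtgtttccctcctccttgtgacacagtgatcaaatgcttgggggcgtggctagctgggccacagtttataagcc
Isg15: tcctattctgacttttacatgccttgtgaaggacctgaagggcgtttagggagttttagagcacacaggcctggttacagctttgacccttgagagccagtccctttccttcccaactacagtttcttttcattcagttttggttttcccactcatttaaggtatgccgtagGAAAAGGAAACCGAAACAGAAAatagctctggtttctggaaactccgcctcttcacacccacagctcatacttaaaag
Ifit3: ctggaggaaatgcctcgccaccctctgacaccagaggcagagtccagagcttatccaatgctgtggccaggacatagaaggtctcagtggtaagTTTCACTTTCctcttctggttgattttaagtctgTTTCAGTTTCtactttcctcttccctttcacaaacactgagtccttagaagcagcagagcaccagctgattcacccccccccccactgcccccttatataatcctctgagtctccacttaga
Cmpk2: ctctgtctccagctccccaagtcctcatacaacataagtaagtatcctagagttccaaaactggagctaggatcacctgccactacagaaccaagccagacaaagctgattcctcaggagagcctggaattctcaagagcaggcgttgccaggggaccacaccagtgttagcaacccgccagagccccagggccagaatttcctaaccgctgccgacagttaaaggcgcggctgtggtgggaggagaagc
The Rsad2 promoter held 1 match, starting 120 bases before the gene, Ifit3 held 2, at 156 and 122 bases, and Isg15 held 3 that overlap each other, the nearest at 66 bases. The Cmpk2 window held none. Of the 40 members, 30 had a promoter in the table, and 16 of these (53.3%) held the element, against 3.04% of all 27025 promoters of that length. The gamma-activated sequence, searched as TTCNNNGAA, a palindrome in its fixed letters, was in 6 of the 30 (20%), against 7.18% of all promoters. A match describes letters only. The 10 members without an entry were Oas2, Mx1, Mx2, Usp18, Dhx58, Zbp1, Ifi204, Ifi27l2a, Parp14 and Rtp4.

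Among the 17 named classes, the summed level of the 39 genes was highest in monocytes and in the vascular wall. Unnamed clusters are outside this and the later rankings. An unnamed cluster of 191 cells had 7133 CPM, between classical and nonclassical monocytes. Classical monocytes, the inflammatory monocytes of blood, had a summed level of 9852 CPM (9811 to 9894) over 2054 cells. Nonclassical monocytes, which patrol vessels, followed with 7051 CPM and endothelial cells with 6187 CPM. Neutrophils had 4047 CPM, lymphatic endothelial cells 3815 CPM and fibroblasts 2916 CPM. The middle of the order held C1q macrophages (2125 CPM), dendritic cells (1878), T cells (1781), B cells (1555), ciliated cells (1294) and NK cells (1223). Erythroid cells had 1179 CPM, of which Rsad2 alone made up 77.9%. Plasma cells had 927 CPM and alveolar macrophages 816. Club or secretory cells (513 CPM, 491 to 536) and alveolar type 2 cells (475 CPM, 459 to 492) were lowest, with intervals that overlapped. The level in classical monocytes was 5.53 times that of the median class, T cells (5.44 to 5.63).

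Classical monocytes were the class of highest summed level in each of the 7 libraries, where the named classes with at least 20 cells were ranked. Their level ran from 8709 CPM in library 1 to 13331 CPM in library 2. Nonclassical monocytes were second in each. Ifitm3, Ifi27l2a and Bst2 made up 37.9%, 14.5% and 5.63% of all member UMIs, so the sum was also taken without these 3. Classical monocytes then stood at 2.98 times the median class, B cells, and were first in every library but library 1. There neutrophils were first with 2611 CPM, against 2318 CPM in classical monocytes. Without the 3, nonclassical monocytes had rank 4 in libraries 1, 2, 3 and 7, rank 2 in library 4 and rank 3 in libraries 5 and 6. Over pooled libraries classical monocytes then had 2808 CPM, endothelial cells 2678, neutrophils 2395 and nonclassical monocytes 1809.

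**Figure D1:**
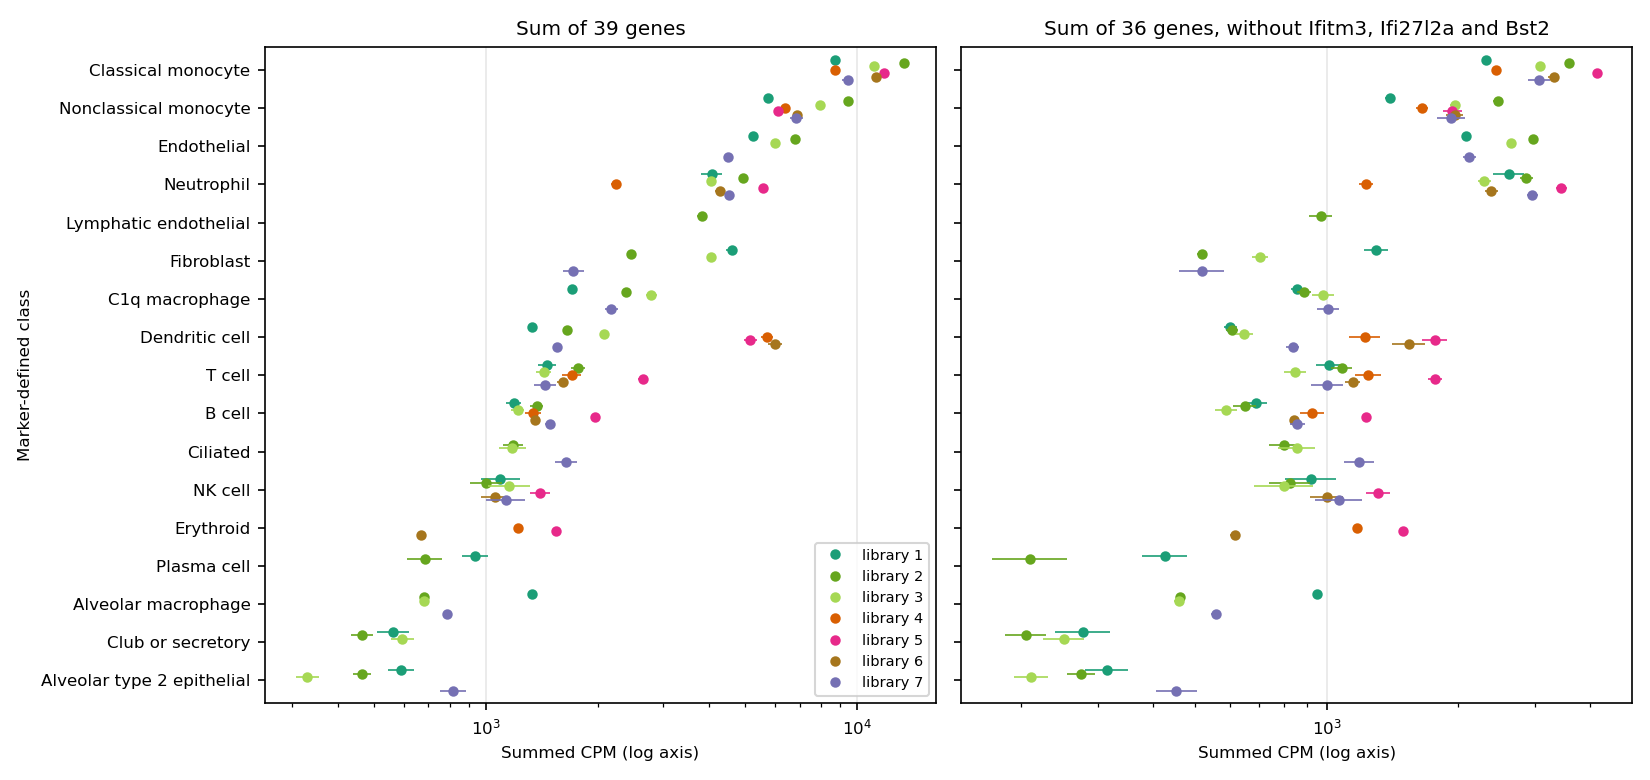
Summed level of the interferon-stimulated genes (x axis, CPM, log scale) in each class (y axis, ordered by the pooled level). Points are single libraries with at least 20 cells of the class, lines are 95% Poisson intervals, and the right panel leaves out Ifitm3, Ifi27l2a and Bst2. Classical monocytes lie farthest to the right in each library on the left, from 8709 to 13331 CPM.

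Against all other kept cells, 29 of the 39 members were at least 2-fold higher in classical monocytes with 20 UMIs or more, where 4.91% of 17653 genes were. None of the 39 was 2-fold lower, against 42.8% of genes. In endothelial cells 24 members were higher, against 19.8% of genes, and 6 lower, against 29.3%. In neutrophils 12 were higher, against 6.42% of genes, and 7 lower, against 64.9%. In nonclassical monocytes 12 were higher, against 4.96% of genes. In alveolar type 2 and in club or secretory cells no member was higher, where 10.4% and 6.96% of genes were, and 35 members were lower in each, where 37.5% and 60.4% of genes were. Alveolar macrophages also had no member higher (10.1% of genes) and had 25 lower (40.1%). The other classes had few members higher, or none. T cells had 4, against 7.18% of genes, ciliated cells 4, against 19.3%, and lymphatic endothelial cells 3, against 12.9%. B cells had 2 higher, against 11.8% of genes, and 14 lower, against 41.1%. Dendritic cells had 2 higher, against 6.69%, NK cells 2, against 7.06%, and C1q macrophages 1, against 4.35%. Fibroblasts had none higher, against 18.5%. Plasma cells had none higher, against 3.05%, and 31 lower, against 54.1%.

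Within single libraries, 21 to 36 members were at least 2-fold higher in classical monocytes than in the other cells of that library. The background was 3.06% of genes in library 7, where 21 were, and 71.2% in library 4, where 36 of 38 tested members were and erythroid cells were 1243 of the 2992 cells. The background was also high in libraries 5 and 6, at 26.7% and 22.7% of genes, where 34 and 33 members were. The 14 members past the fold in all 7 libraries were Dhx58, Ifi204, Ifi211, Ifi27l2a, Ifi47, Ifitm3, Irf7, Mx1, Oas3, Oasl2, Rtp4, Trim30a, Xaf1 and Zbp1. The share of all genes past the fold in all 7 libraries was not computed, so the 14 have no background beside them. By the same count, nonclassical monocytes had 0 of 38 members higher in library 4, where 21.3% of genes were. In the other libraries they had 11 to 20 of 39, against 3.86% to 22.4% of genes. Neutrophils had 2 of 38 in library 4, against 6.88%, and 6 to 18 of 39 in the others, against 4.88% to 11.5%. Endothelial cells had 24 to 27 of 39 in libraries 1, 2, 3 and 7, against 14.3% to 19.3%.

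**Figure D2:**
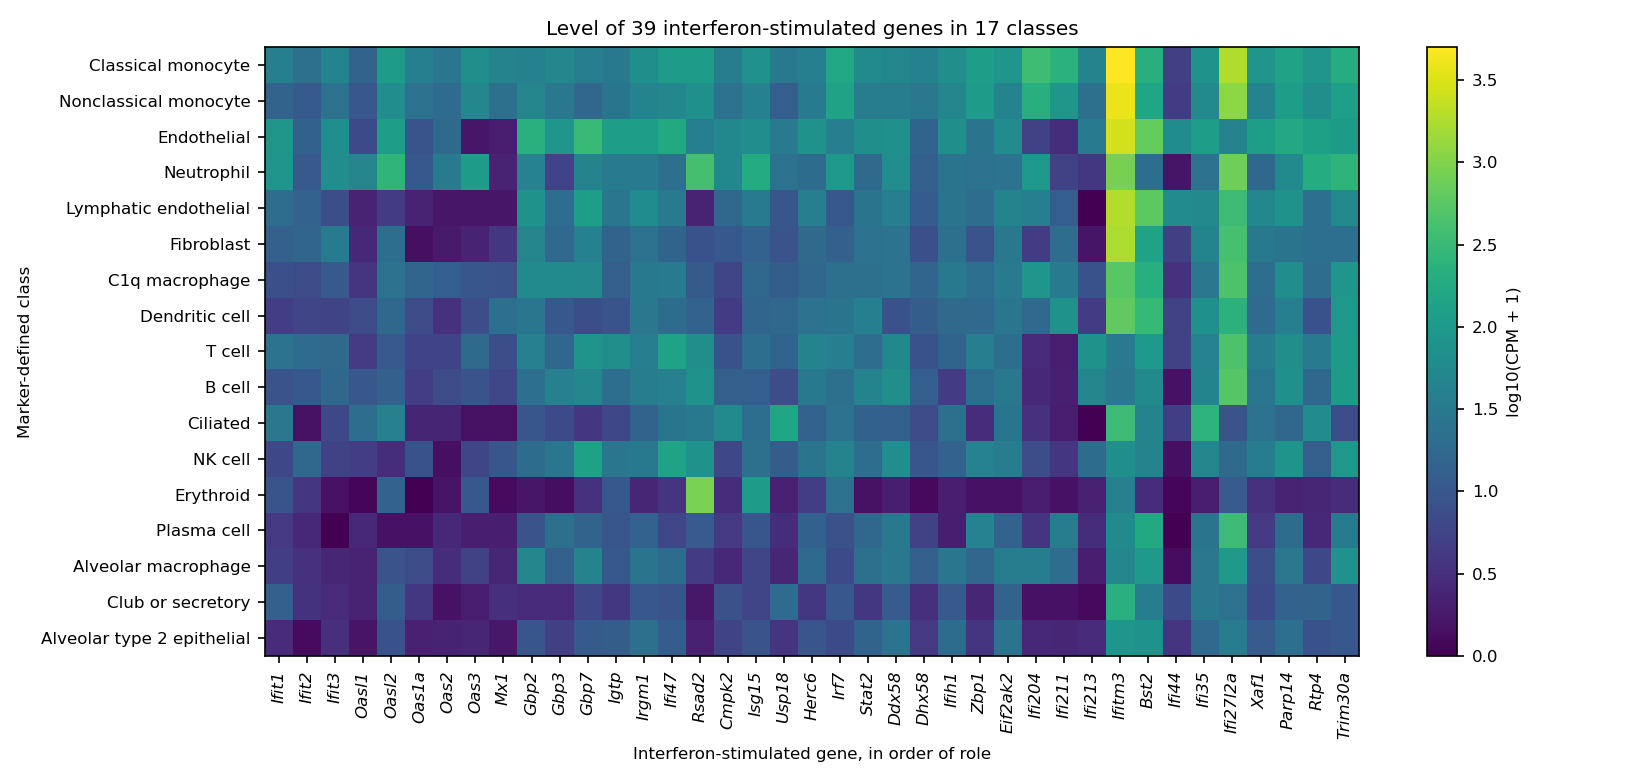
Level of each of the 39 genes (x axis, in order of role) in each of 17 classes (y axis, in order of summed level), as log10(CPM + 1) by color. Rsad2 is the bright column in the erythroid row (918 CPM), and Oas3 and Mx1 are dark in the endothelial row at under 1 CPM while the neighbouring GBP genes are bright.

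The members did not share 1 order of classes. Among the 17 classes, 16 of the 39 had their highest level in endothelial cells, 11 in classical monocytes, 7 in neutrophils, 3 in ciliated cells, and 1 each in erythroid cells and T cells. The highest class was not counted over all genes, so these counts have no background. Of all genes, 19.8% were at least 2-fold higher in endothelial and 19.3% in ciliated cells. In classical monocytes and neutrophils 4.91% and 6.42% were. For 8 members the intervals of the first and second class overlapped: Cmpk2, Ddx58, Ifi44, Ifih1, Ifit1, Ifit2, Ifit3 and Zbp1.

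Of the IFIT proteins, IFIT1 binds viral RNA that lacks the host cap methylation. Ifit1 stood at 90.1 CPM in endothelial cells and 86.6 CPM in neutrophils, and Ifit3 at 65.3 CPM and 65.1 CPM. Neither gene separated these classes beyond counting error. Ifit2 was highest in classical monocytes with 22.4 CPM, next to T cells with 18.4 CPM. The Ifit3 counts are uncertain, since its close copy Ifit3b could share reads.

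The OAS enzymes make short oligoadenylates that activate RNase L, and the OASL proteins are their relatives. Neutrophils had the highest level of 4 of these 5 genes, with Oasl2 at 260 CPM, Oas3 at 112 CPM, Oasl1 at 46.8 CPM and Oas2 at 33.7 CPM. Oasl1 was 9.44-fold and Oas3 7.96-fold higher there than in all other cells. Oas1a, one of several closely similar Oas1 genes that may share reads, was highest in classical monocytes with 38.0 CPM. Endothelial cells had Oasl2 at 117 CPM and Oas3 at 0.691 CPM, from 14 UMIs. Oas3 was at 0 to 0.850 CPM in each endothelial library, and at 61.02 to 173 CPM in each neutrophil library.

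Mx1, a gene of the dynamin-like GTPase family, had its highest levels among named classes in monocytes and dendritic cells. It stood at 44.9 CPM in classical monocytes, 22.1 CPM in nonclassical monocytes and 21.4 CPM in dendritic cells. The next named class, NK cells, had 8.91 CPM, and an unnamed cluster had 28.5 CPM. Endothelial cells had 0.938 CPM and neutrophils 1.37 CPM. In the 7 libraries Mx1 ran from 25.9 to 67.0 CPM in classical monocytes and from 0 to 2.67 CPM in neutrophils, so the libraries of these classes did not overlap.

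The guanylate-binding proteins and immunity-related GTPases, which respond strongly to interferon gamma and attack the vacuoles of intracellular microbes, had their highest level in endothelial cells for all 6 members. Gbp7 stood at 308 CPM (301 to 316), Gbp2 at 221 CPM (214 to 227), Ifi47 at 178 CPM, Irgm1 at 119 CPM, Igtp at 118 CPM and Gbp3 at 83.4 CPM. The next named class was NK cells for Gbp7 (130 CPM) and T cells for Ifi47 (142 CPM) and Igtp (66.4 CPM). Igtp overlaps Irgm2 and Ifi47 overlaps Olfr56 on the same strand in the annotation, so their counts carry that uncertainty. Across the 4 libraries with enough endothelial cells, Gbp2 ran from 157 to 239 CPM. It stayed at 22.3 to 61.9 CPM in neutrophils of all 7 libraries.

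Of the ISG15 system, Isg15, a ubiquitin-like protein that is attached to targets, was highest in neutrophils with 186 CPM. Erythroid cells followed with 112 CPM over pooled libraries, from 193 CPM in library 4 to 46.5 CPM in library 6. Usp18, which removes ISG15 and restrains the type I receptor, was highest in ciliated cells with 153 CPM (136 to 170), 13.4-fold above all other cells and 4.81 times the level in endothelial cells. The 3 libraries with enough ciliated cells had Usp18 at 141, 170 and 171 CPM, and no classical monocyte or neutrophil library exceeded 56.8 CPM. Ifi35, whose product works with NMI, was also highest in ciliated cells (244 CPM), as was Cmpk2 (57.2 CPM), a mitochondrial nucleotide kinase, although for Cmpk2 the interval overlapped that of neutrophils. Usp18 and Ifi35 each overlap a gene on the opposite strand. Herc6, the ligase that attaches ISG15 in mice, was highest in endothelial cells with 74.9 CPM.

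Irf7, the factor that amplifies interferon production, was highest in classical monocytes with 161 CPM and in nonclassical monocytes with 134 CPM. Stat2 was highest in endothelial cells (68.5 CPM) and then classical monocytes (56.2 CPM). Among the sensors, Zbp1, a receptor of Z-form nucleic acid, stood at 114 and 110 CPM in the classical and nonclassical monocytes. Eif2ak2, the kinase PKR, was highest in classical monocytes (85.6 CPM), as was Dhx58 (41.4 CPM), which encodes LGP2. Ddx58 (RIG-I) and Ifih1 (MDA5) were highest in endothelial cells, with 71.9 and 67.7 CPM, and overlapped B cells (65.9 CPM) and classical monocytes (66.8 CPM) within counting error.

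The PYHIN genes encode nuclear and cytosolic DNA-binding proteins. Ifi204 was at 358 CPM in classical monocytes, 10.4-fold above all other cells, and Ifi211 at 230 CPM, 10.05-fold above. Ifi213 had another order, with 76.8 CPM in T cells, 47.3 CPM in B cells and 45.0 CPM in classical monocytes. Lymphatic endothelial and ciliated cells had no Ifi213 UMI, which allows up to 2.05 CPM and 1.45 CPM. These genes are close relatives, and Ifi211 overlaps Mndal on the same strand.

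Ifitm3, which hinders fusion of virus with endosomal membranes, was at 5029 CPM in classical monocytes and 3893 CPM in nonclassical monocytes, and at 28.7 CPM in B cells. Bst2, or tetherin, which holds budding virus at the membrane, was at 671 CPM in endothelial and 589 CPM in lymphatic endothelial cells. Ifi44 had close levels in both endothelial classes, with 62.1 CPM in endothelial cells, 19.7-fold above all other cells, and 60.8 CPM in lymphatic endothelial cells. Ifi44 had 5.73 CPM in the next named class, club or secretory cells, and 0.630 CPM in neutrophils and 3.95 CPM in classical monocytes. An unnamed cluster of 140 cells had 31.4 CPM. Xaf1 (117 CPM) and Parp14 (168 CPM) were highest in endothelial cells too. Rtp4 (192 CPM) and Trim30a (254 CPM) were highest in neutrophils, and Ifi27l2a (1797 CPM) in classical monocytes.

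Rsad2 encodes viperin, a radical SAM enzyme that makes an antiviral nucleotide from CTP, with CTP in cells kept in supply by the kinase CMPK2. Its highest level was in erythroid cells, the red cell lineage defined here by globin genes. In 5468 erythroid cells it stood at 918 CPM (908 to 928), and by library at 907 CPM in library 4, 1268 CPM in library 5 and 493 CPM in library 6, the 3 libraries with enough erythroid cells. At least 1 Rsad2 UMI was found in 96.4%, 91.0% and 69.2% of these cells, and the median cell held 6, 5 and 2. By UMI count Rsad2 was gene 25 of the 5478 genes with 20 UMIs or more in erythroid cells. Neutrophils followed with 403 CPM (390 to 416), where it was gene 300 of 8764, and classical monocytes had 105 CPM.

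Rsad2 was 18.1-fold higher in erythroid cells than in all other cells (17.7 to 18.5). Within a library the difference was smaller, at 4.71-fold in library 4 (4.53 to 4.89), 7.37-fold in library 5 (7.10 to 7.65) and 6.50-fold in library 6 (6.14 to 6.89). Globin took 87.5% of erythroid UMIs. Without globin UMIs in the totals, Rsad2 was at 7345 per 1000000 UMIs in erythroid cells and 141.5 times the level of all other cells. On the CPM scale 36 of the 39 members were at least 2-fold lower in erythroid cells, where 97.3% of genes were, and 2 were higher, Rsad2 and Isg15, where 1.11% of genes were.

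Per 1000000 non-globin UMIs, and against the other cells of libraries 4, 5 and 6 alone, 5 members were at least 2-fold higher in erythroid cells, where 5.23% of genes were, and 27 were lower, where 85.3% were. Rsad2 was 45.8-fold higher (44.7 to 46.9) and Isg15 17.2-fold (16.4 to 18.1). Irf7 was 2.62-fold, Ifit1 2.26-fold and Igtp 2.25-fold higher. Isg15 had 193, 98.3 and 46.5 CPM in erythroid cells of libraries 4, 5 and 6, which on the CPM scale was 3.17-fold, 2.22-fold and 1.28-fold above the other cells of the same library. Ifit3, in contrast, had 18 UMIs in all erythroid cells, or 0.537 CPM, and Oas1a a single UMI. Cmpk2, the neighbour of Rsad2, had 1.91 CPM in erythroid cells and 0.580 times the non-globin level of the other cells (0.443 to 0.747). Its level in neutrophils was 52.2 CPM. Erythroid cells thus held 30753 UMIs of Rsad2 and 64 of Cmpk2, and neutrophils 3833 and 497.

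**Figure D3:**
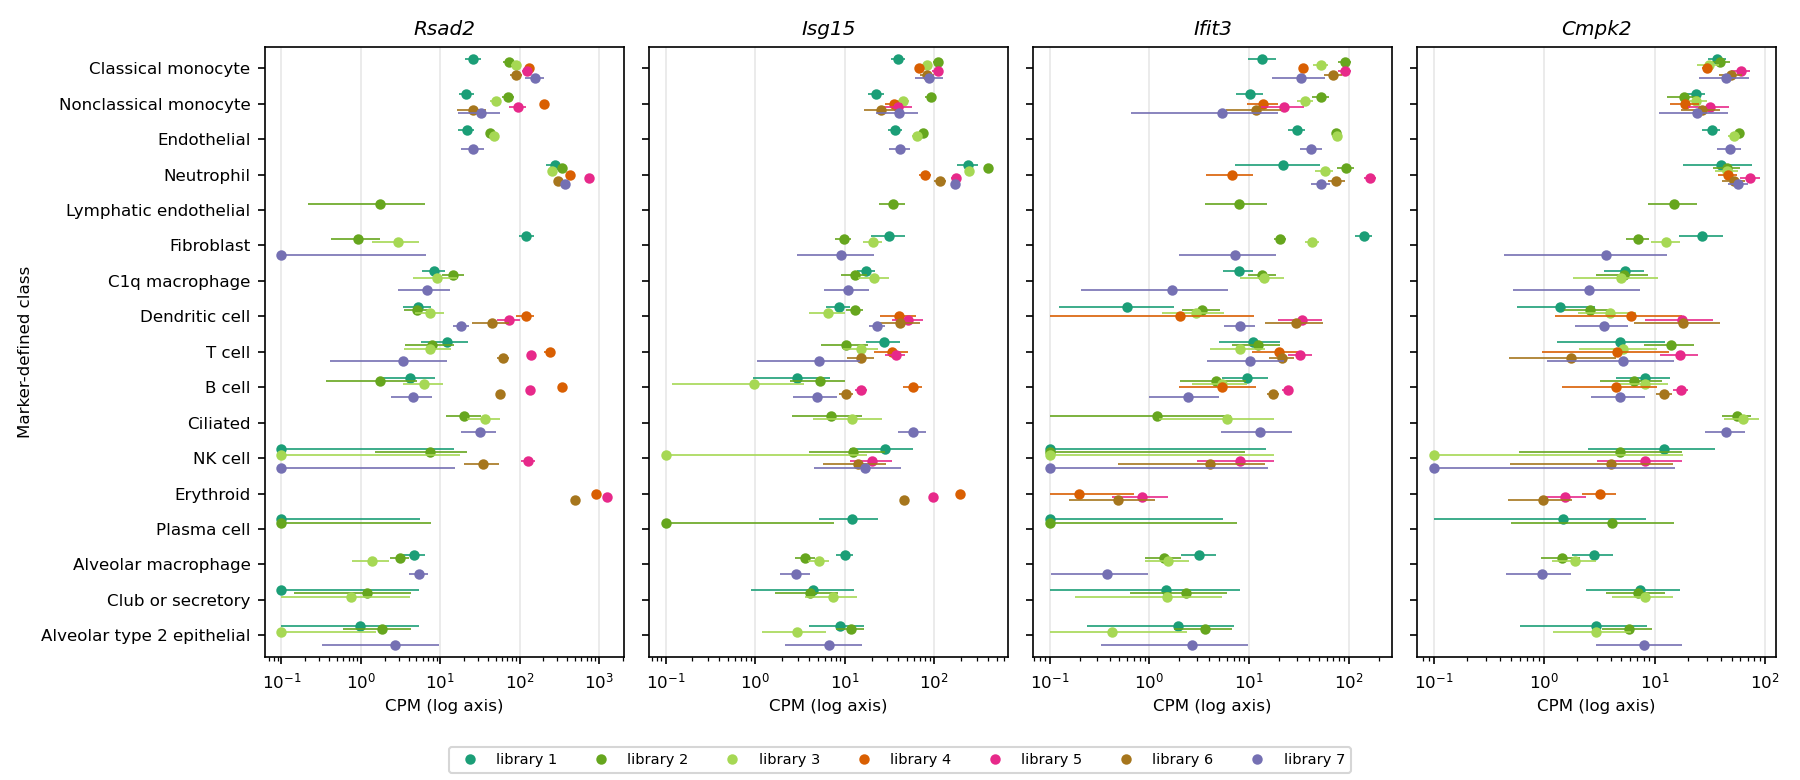
Level (x axis, CPM, log scale) of Rsad2, Isg15, Ifit3 and Cmpk2 in each class (y axis) and library (color), for libraries with at least 20 cells of the class. Lines are 95% Poisson intervals, and values under 0.1 CPM, including 0, are drawn at 0.1. Rsad2 is high in erythroid cells and neutrophils. Isg15 in erythroid cells falls from 193 CPM in library 4 to 46.5 CPM in library 6, and Ifit3 is under 1 CPM in erythroid cells.

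The erythroid class held 2 clusters. The larger, of 3870 cells, had Rsad2 at 858 CPM, and the other, of 1598 cells with Slc4a1, a gene of the red cell membrane, among its leading genes, had 1035 CPM. Isg15 was at 88.1 and 157 CPM in them over pooled libraries. Library 4, which had the highest erythroid Isg15 level, held 463 cells of the larger cluster and 780 of the other. Isg15 was not split by library within the clusters, so its 2 values also compare unlike mixes of libraries. Within each of libraries 4, 5 and 6 the second cluster had the higher Rsad2 level, with 958 against 814 CPM in library 4, 1351 against 1237 CPM in library 5 and 561 against 483 CPM in library 6, and none of these pairs of intervals overlapped. These clusters were drawn from the same cells without the members.

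Other cells of libraries 4, 5 and 6 also carried globin UMIs and Rsad2. B cells had Rsad2 at 344, 136 and 56.0 CPM in libraries 4, 5 and 6, and at 1.77 to 6.32 CPM in libraries 1, 2, 3 and 7. The share of B cells with an Rsad2 UMI was 62.7%, 20.9% and 11.4%, against 0.993% to 2.85%. T cell levels split the libraries alike, with 243, 141 and 62.4 CPM against 3.42 to 12.05 CPM. Globin took 29.0%, 8.49% and 9.17% of B cell UMIs in libraries 4, 5 and 6. B cells held 1.19, 1.60 and 0.611 Rsad2 UMIs per 1000 globin UMIs there, and erythroid cells 1.02, 1.46 and 0.563. The libraries kept the same order in both classes, and the intervals of the classes overlapped only in library 6. T cells held 1.54, 2.47 and 0.743, above erythroid cells with no overlap of intervals in libraries 4, 5 and 6. NK cells held 2.18 in library 5 and 0.378 in library 6.

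Neutrophils of these libraries held more than B cells and erythroid cells, with 1.41, 2.56 and 1.74 Rsad2 UMIs per 1000 globin UMIs. Classical monocytes held 1.801, 4.002 and 3.937. Neutrophil Rsad2 was at 284, 341, 259 and 370 CPM in libraries 1, 2, 3 and 7, where globin was near 0, and at 432, 757 and 302 CPM in libraries 4, 5 and 6. The ranges of both sets overlapped, although different clusters made up most neutrophils in each set. How much of the Rsad2 of B, T and NK cells, dendritic cells, neutrophils and monocytes came with globin RNA was not tested. Classical monocytes ran from 26.2 CPM in library 1 to 155 CPM in library 7, with libraries 4, 5 and 6 at 133, 125 and 89.5 CPM. After each cell was thinned to 1500 UMIs, Rsad2 was found in 58.5% of erythroid cells, 23.3% of neutrophils, 8.77% of classical monocytes and 0.326% of fibroblasts. The unthinned shares were 84.5%, 34.9%, 29.2% and 1.47%.

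**Figure D4:**
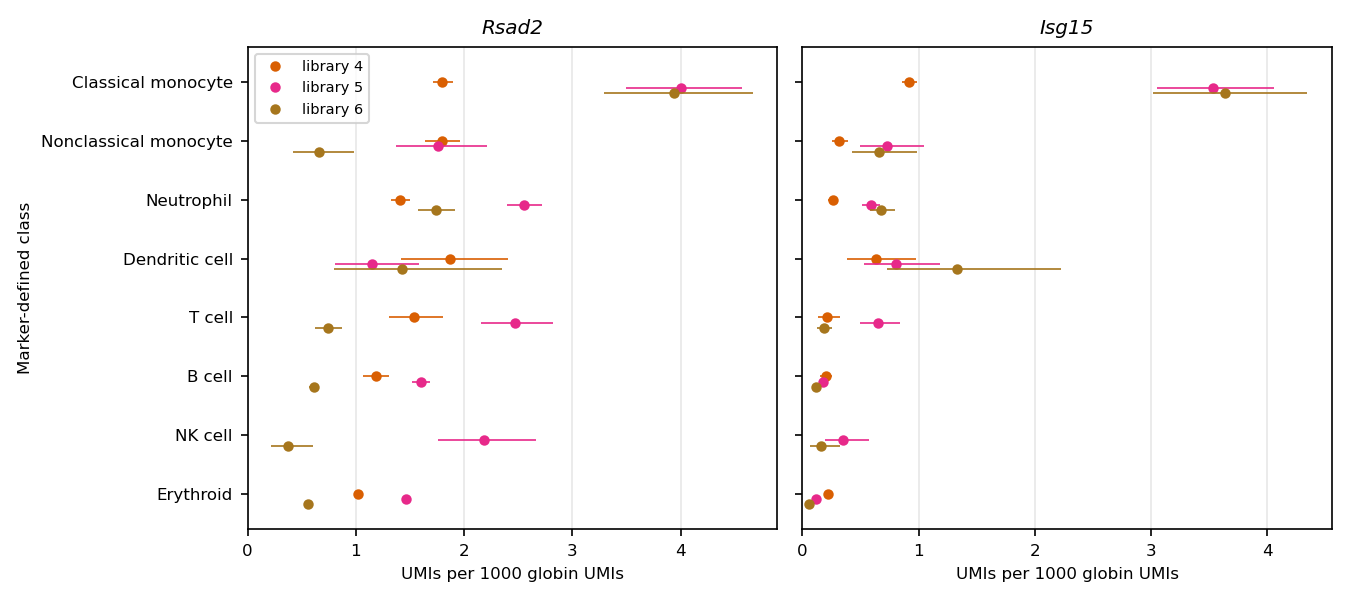
Rsad2 (left) and Isg15 (right) UMIs per 1000 globin UMIs (x axis) in the classes (y axis) of libraries 4, 5 and 6 with at least 20 cells. Points are libraries and lines 95% Poisson intervals. B cells lie near erythroid cells for Rsad2 in each library (1.19 and 1.02, 1.60 and 1.46, 0.611 and 0.563), while T cells and classical monocytes lie to the right.

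Within a class, the highest library had a median of 1.66 times the summed level of the lowest over 15 classes, from 1.29 in club or secretory cells to 4.51 in dendritic cells. Without the 3 members of highest level the median was 2.07. In dendritic cells Ifitm3 stood at 3144, 2187 and 3094 CPM in libraries 4, 5 and 6, with 30 to 42 cells each, and at 293 to 647 CPM in the others. Those 3 libraries are also those with globin, and whether their dendritic cells are of the same kind was not tested.

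Members were also compared between libraries singly, beside all genes tested in the same class. In classical monocytes 11 of the 21 members with enough UMIs differed at least 2-fold between the highest and the lowest of 7 libraries, against 16.7% of genes. Among libraries 4, 5 and 6 alone, it was 11 of 37, against 3.68% of genes, and among libraries 1, 2, 3 and 7 it was 6 of 23, against 5.84%. Over the 7 libraries Rsad2 spanned 5.91-fold, Isg15 2.79-fold and Oasl2 2.60-fold, each lowest in library 1. The Rsad2 level was 26.2 CPM in library 1 and 73.2 CPM in the next lowest, library 2. The highest, 155 CPM in library 7, rested on 35 cells, of which 1 held 34 of the 56 Rsad2 UMIs, and the next highest was 133 CPM in library 4. Ifit3 in classical monocytes was at 13.6 CPM in library 1, 33.2 to 69.9 CPM in libraries 3, 4, 6 and 7 and 90.8 and 91.1 CPM in libraries 2 and 5. In endothelial cells 9 of 32 members differed 2-fold, against 8.31% of genes. Ifit1 was at 37.7 and 39.3 CPM in endothelial cells of libraries 1 and 7, and at 109 and 101 CPM in libraries 2 and 3.

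In neutrophils 9 of the 10 members with enough UMIs differed at least 2-fold over 7 libraries, against 74.4% of genes. By set of libraries, 24 of 30 members differed at least 2-fold among libraries 4, 5 and 6, against 38% of genes, and 2 of 11 did among libraries 1, 2, 3 and 7, against 10.7%. The class held 2 clusters, led by Acod1 and Il1r2 (1512 cells) and by Ly6g and S100a8 (740 cells). The second held all 250 neutrophils of library 4, 193 of 214 in library 5 and 250 of 252 in library 6, and the first held most of those in the other libraries. The median depth was 8126 UMIs in library 4 and 2204 to 5143 elsewhere. The part of cluster and depth in the library values was not tested. Library 4 was low. Its neutrophils had Ifit1 at 8.02 CPM against 72.4 to 177 CPM in the other libraries. Its Ifit3 level was 6.68 CPM against 22.2 to 163 CPM, and its Oasl2 level 77.5 CPM against 217 to 435 CPM. Rsad2 was not low there, at 432 CPM. Those neutrophils held 1.41 Rsad2 UMIs per 1000 globin UMIs, and erythroid cells of library 4 held 1.02. How much of this Rsad2 came with globin RNA was not tested. Globin took 30.6% of neutrophil UMIs in library 4 and 29.6% in library 5, which had the highest Ifit1, Ifit3 and Oasl2 levels.

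In alveolar macrophages 18 of 30 members differed 2-fold among 4 libraries, against 19.4% of genes. Library 1 was the highest for 15 of the 18. How often library 1 was the highest among all genes past the fold was not computed, so this count has no background. Gbp2 stood at 180 CPM in library 1 and at 20.4, 18.7 and 25.5 CPM in libraries 2, 3 and 7. Gbp3 was at 37.9 CPM against 3.84 to 9.14 CPM, and Ifi211 at 59.4 CPM against 8.50 to 18.7 CPM. Gbp2 was found in 37.7% of the 623 alveolar macrophages of library 1 and in 21.1% to 27.6% elsewhere. Ifit3 was low in this class, with 3.17 CPM in library 1 and 0.380 to 1.55 CPM in the others. In C1q macrophages 3 of 22 members were past the fold, against 15.7% of genes, and library 1 had the lowest summed level, 1701 CPM.

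The spread over single cells was measured after each cell was thinned to 1500 UMIs, with shallower cells left out, on the 36 members without Ifitm3, Ifi27l2a and Bst2. At least 10 member UMIs were found in 8.97% of classical monocytes (183 of 2041, exact binomial interval 7.76% to 10.3%), 8.66% of endothelial cells (253 of 2920) and 8.63% of neutrophils (184 of 2133). These shares were close, but the shapes differed. The variance over the mean was 5.55 in classical monocytes, 3.65 in endothelial cells and 10.9 in neutrophils over pooled libraries. Independent counts at 1 common level would give 1, and the pooled values also hold differences between libraries. By library it ran from 2.20 (library 4) to 15.6 (library 5) in neutrophils and from 3.80 (library 1) to 9.78 (library 7) in classical monocytes. In library 4 classical monocytes had the higher value, 4.47, and in each other library neutrophils did. The highest neutrophil held 96 member UMIs of 1500, while 408 of the 2133 held none. In B cells the share was 0.723% and in alveolar macrophages 0.454%. In erythroid cells it was 1.503%. Rsad2, 1 of the 36 members counted, was found in 58.5% of the thinned erythroid cells. The filter left out 119 neutrophils, 33 endothelial cells and 13 classical monocytes. Without thinning, 80.5% of classical monocytes, 61.2% of endothelial cells and 31.2% of neutrophils held 10 or more, with median depths of 10423, 5533 and 3264.5 UMIs.

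By library, the share of neutrophils with at least 10 member UMIs was 1 of 250 cells in library 4 and 7.94% to 12.8% in the other 6. In endothelial cells it was 3.36% and 5.83% in libraries 1 and 7 and 10.8% and 8.05% in libraries 2 and 3. In classical monocytes it ran from 4.85% in library 1 to 19.0% in library 5.

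**Figure D5:**
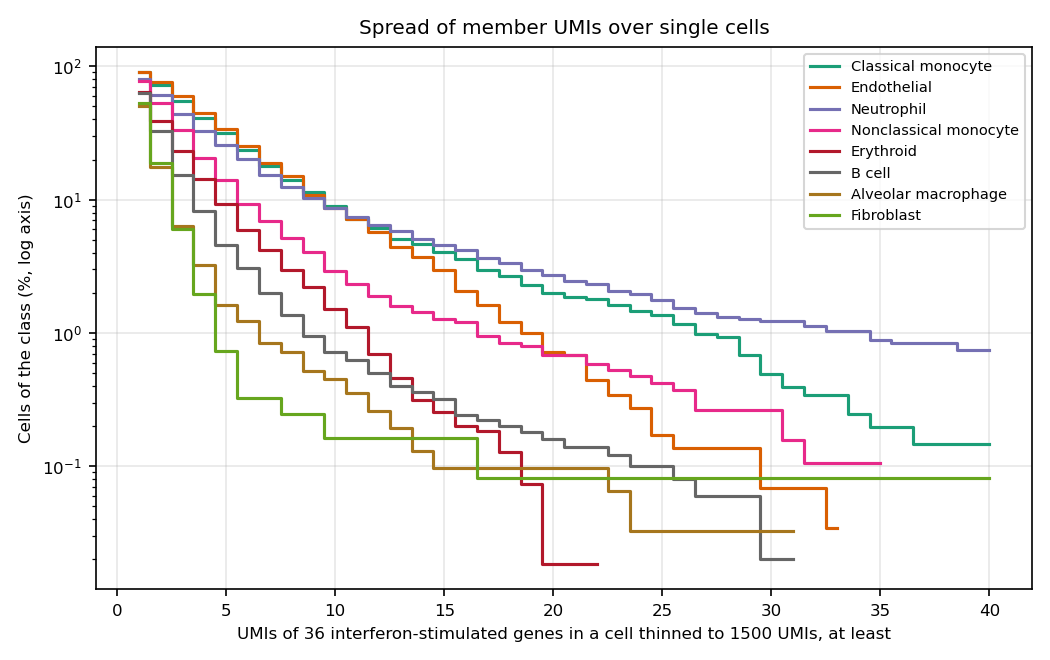
Share of the cells of 8 classes (y axis, percent, log scale) with at least a given number of UMIs of 36 interferon-stimulated genes (x axis) after thinning each cell to 1500 UMIs. Lines are classes. The x axis stops at 40, and the highest cells past it held 96 UMIs in neutrophils, 53 in fibroblasts and 43 in classical monocytes. At 10 UMIs neutrophils, classical monocytes and endothelial cells meet between 8.63% and 8.97%.

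Over cells pooled from all libraries, cells with an Ifit3 or Rsad2 UMI held more UMIs of the other members on average in the classes given. Neutrophils with an Ifit3 UMI after thinning (90 cells) held 18.2 UMIs of the other 35 members on average, and the 2043 without held 3.20, a ratio of 5.68. The ratio for Ifit3 was 5.08 in nonclassical monocytes, 5.01 in B cells, 3.90 in classical monocytes and 2.17 in endothelial cells. For Rsad2 it was 2.99 in neutrophils, 1.45 in B cells and 2.48 in erythroid cells, where the cells with Rsad2 held 0.410 UMIs of the others and those without 0.165. Cells with and without a gene shared the thinned depth but came in unequal parts from the libraries. In thinned erythroid cells, for example, Rsad2 was found in 70.0% in library 5 and 39.5% in library 6. Ratios within a library or a cluster were not computed, and the ratios are descriptions.

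A single fibroblast of library 1, picked out after its values were seen, held an exceptional number. It held 440 UMIs of the 36 members among 15098 UMIs, including 90 of Rsad2, 83 of Ifit3 and 52 of Ifit1. The next highest of the 61 fibroblasts of that library held 27. The cell had a UMI of 6 of the 7 fibroblast markers and of none of the 8 endothelial and 2 of the 6 classical monocyte markers. It carried every Rsad2 UMI of that class and library, so the level of 122 CPM became 0 without it. Ifit3 fell from 141 to 29.0 CPM and the sum of the 36 members from 1295 to 714 CPM.

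Other genes of the pathway were read from lists of receptors, kinases and factors, sensors, regulators and the interferons. Of 18 type I interferon genes, 13 had no UMI in any kept cell and all 18 together had 18 UMIs among 291580908, which include 4 of Ifnb1. Of the genes of types II and III, Ifng, made by T and NK cells, had 613 UMIs. Of these, 157 were in NK cells (63.6 CPM) and 180 in T cells (21.3 CPM), with the rest in other named classes and unnamed clusters. Ifnl2 and Ifnl3 had none. With no UMI, up to 3 counts are allowed by counting error.

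Of the 6 receptor genes, 3 were at least 2-fold higher in nonclassical monocytes and 2 in classical monocytes, where the genes at large were at 4.96% and 4.91%. Ifngr1 stood at 924 CPM in nonclassical and 585 CPM in classical monocytes, and Ifnar2 at 176 and 152 CPM. Ifnar1 was highest in C1q macrophages (134 CPM). Ifnlr1, the type III chain, was at 14.2 CPM in neutrophils, 10.7-fold above all other cells, and at 0.0454 CPM in classical monocytes. In erythroid cells all 6 receptors were at least 2-fold lower, as were 97.3% of all genes, with Ifnar1 at 1.19 CPM and Ifnar2 at 5.55 CPM. Of 10 kinases and transcription factors, 2 were higher in classical monocytes, Irf5 (258 CPM, 3.87-fold) and Irf9 (83.7 CPM, 2.08-fold). All 10 were lower in erythroid cells, again beside 97.3% of all genes. Dendritic cells had 4 of these 10 higher and 0 lower, and NK cells 3 higher and 1 lower, where 6.69% and 7.06% of genes were higher. Of 9 genes of endosomal and DNA sensing, 4 were higher in classical monocytes, with Tlr7 at 77.6 CPM. Alveolar macrophages also had 4 higher, where 10.1% of genes were, and each of these classes had 1 lower. Of 7 negative regulators, 2 were higher in classical monocytes and 2 lower, where 42.8% of genes were lower.

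Over 80 points, each a class in a library with at least 20 cells, the genes outside the list whose level followed the summed level of the 39 members most closely by Spearman correlation were Nhsl2 (0.85), Ap1s2 (0.84), Slfn5 (0.81), Irf9 (0.81), Rnf213 (0.80), Rbfa (0.80), Asap1 (0.80), Cep85l (0.78), Acap2 (0.76) and Palm (0.76). When the 3 most abundant members were left out of the sum, Irf9 had 0.83 and Rnf213 0.78. Each member was also set against the sum of the others, with the same 3 left out of that sum. Isg15 followed it most closely (0.83) and Bst2 least (0.22), with Rsad2 at 0.56. Against the sum of all 39, which includes the member itself, Isg15 had 0.71, Bst2 0.53 and Gbp7 the lowest value, 0.19. Points of a class share their cell type and points of a library their depth, so these are descriptions.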

How the data were processed

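The authors deposited 1 matrix of UMI counts with their mouse lung samples. It was made with Cell Ranger 3.1.0 per the file header and on mm10 per the labels, after reads were down-sampled between libraries. The labels and the study's methods name different versions of the kit. The matrix names libraries by number only, so it was read as 1 sample. Cells with at most 10% mitochondrial UMIs were kept. Levels are CPM of summed counts over 3′ tags, not divided by gene length. Cells were clustered without the 40 genes (2000 variable genes, 30 components, mutual nearest neighbors, 20 neighbors, Leiden resolution 0.8) and named from 26 marker lists. No doublet caller was run, and clusters holding markers of several lineages stayed unnamed, by a rule added after the clusters were first seen. A gene was counted as higher at a fold of at least 2 with 20 UMIs or more, and libraries of fewer than 20 cells in a class were left out. Ratios carry exact 95% conditional intervals. Intervals and limits for 0 (3 counts) cover counting error only. No test of a condition was possible.

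The members and lists were chosen with earlier results of these data known. All members found were described by role, with up to 5 per class and per library comparison taken by largest fold, and the 10 genes that followed the sum most closely. Other values by library, and the split into libraries with and without globin, were chosen after values were seen. Promoters came from RefSeq on GRCm38.p6, and gene positions from GRCm38. Counting was checked on simulated data. Alternatives were other limits on cells, clusterings, denominators, member sets, depths and weights of libraries, each library left out, and, added after seeing the data, comparison within a library. Python 3.11.15, numpy 2.4.6, scipy 1.17.1, pandas 2.3.3, scikit-learn 1.9.0, leidenalg 0.10.2 and igraph 0.11.9 were used.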

Additional observations from a re-analysis of the deposited data

How the results depend on the processing

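In the alternatives run for the 4 results below, classical monocytes stayed the highest class and Rsad2 stayed higher in erythroid cells. The library range is the highest over the lowest library, so it has no direction that could change. Neither has the count of members. Single members did not all keep their direction. In erythroid cells Irf7, Ifit1 and Igtp were at 0.566, 0.367 and 0.333 times the CPM of all other cells. Per non-globin UMI they were at 2.62, 2.26 and 2.25 times the level of the other cells of libraries 4, 5 and 6. The ratio of classical monocytes to the median class (5.53) was 4.97 at a mitochondrial limit of 5%, 5.03 with members in the clustering, 5.85 without alignment, 4.90 at resolution 0.4, 6.15 with libraries weighted equally, 2.98 without the 3 members of highest level and 5.83 after thinning to 1500 UMIs. It ran from 5.26 to 6.16 with each library left out. The count of members at least 2-fold higher there (29) was 25 to 30 under the other settings, 25 to 29 with each library left out, and 21 to 36 within single libraries. The share of all genes was not computed for the other settings or with a library left out, so those counts have no background. Within single libraries that share ran from 3.06% of genes in library 7 to 71.2% in library 4, so the counts are not alike. The Rsad2 ratio of erythroid cells to other cells (18.1) was 15.3 with limits of 2 SD, 12.2 at the 5% limit, 11.6 with equal weights, 13.7 after thinning and 142 without globin UMIs. It was 4.71, 7.37 and 6.50 within libraries 4, 5 and 6, and ran from 14.5 to 23.5 with each library left out. The median library range within classes (1.66) was 1.80 with limits of 2 SD, 1.57 without alignment, 1.77 at resolution 0.4, 1.81 without globin UMIs, 2.07 without the 3 members and 1.87 after thinning, and ran from 1.58 to 1.86 with each library left out. Equal weights were not run for it, since it already compares single libraries. The causes of these shifts were not tested. No paired analysis was possible because the columns carry no sample or group. Condition, library and mouse cannot be told apart, and classes of few cells limit the values by library.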
